A study of Mus musculus with 4 samples.

Results

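The 10 genes Rag1, Rag2, Dntt, Xrcc5, Xrcc6, Prkdc, Dclre1c, Xrcc4, Lig4 and Nhej1, which cut antigen receptor gene segments and join the broken ends, were examined for IgD peaks in chromatin of mouse pro-B cells. They were taken by name from 21774 protein-coding genes of the RefSeq annotation on mm10. A peak was counted for a gene when it overlapped the gene body or the 50000 bp on either side of it. Chromatin immunoprecipitation followed by sequencing (ChIP-seq) had been run with anti-mouse IgD in 2 libraries and with mouse IgG, the isotype control, in 2 more. All 4 came from wild-type (WT) mice, from bone marrow cells of the B220+ IgM- CD43+ gate. The age and strain of the mice, and whether the numbered libraries came from separate animals, are not given in the labels. Peaks were called in each IgD library over the equally numbered IgG library, giving the pair 1 list of 11375 peaks and the pair 2 list of 40628 peaks. The agreement between these lists is the only replicate check, and no value below measures a spread between animals. A list of IgD peaks holds no expression values, so the sorted cell type could not be checked against marker genes.

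V(D)J recombination assembles the variable regions of immunoglobulin and T cell receptor genes, and in pro-B cells it acts on the immunoglobulin heavy chain locus. Rag1 and Rag2 encode the paired recombinase that cuts at recombination signals, and Dntt encodes terminal deoxynucleotidyl transferase, which adds untemplated bases to the opened ends. The ends are then sealed by classical non-homologous end joining. In that pathway Xrcc5 and Xrcc6 encode the Ku80 and Ku70 subunits that bind DNA ends, Prkdc encodes the catalytic subunit of DNA-dependent protein kinase, and Dclre1c encodes Artemis, the nuclease that opens hairpin ends. Lig4 encodes the ligase, Xrcc4 its partner and Nhej1 the accessory factor XLF.

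The table of RefSeq promoters (GRCm38.p6, the assembly that mm10 names) held 9 of the 10 genes, all but Prkdc. No peak of either list overlapped the promoters of these 9, and 0 summits lay within 3000 bp of their starts. The share of all promoters with such a peak is not given here, so these counts say nothing particular about these genes. The 250 bases before the start are shown for Rag1 and Rag2, which lay in a stretch without peaks in both lists, for Dntt, whose start lay closest to a summit, and for Xrcc6, the member with a peak in both lists. Capitals mark matches on either strand to 4 motifs, and no marked match overlaps another. The GC box was searched as GGGCGG. The box named for its letters was searched as CCAAT. The TATA box was searched as TATAAA. The E2F site, included because the series asks about the transcription factor E2F3, was searched in the form TTTCGCGC, in the form TTTGGCGC and in the form TTTCCCGC. The sequences run 5′ to 3′ on the strand of the gene, at chr2:101649533-101649782 (minus strand) for Rag1, chr2:101624462-101624711 (plus) for Rag2, chr19:41029025-41029274 (plus) for Dntt and chr15:82016119-82016368 (plus) for Xrcc6.
Rag1: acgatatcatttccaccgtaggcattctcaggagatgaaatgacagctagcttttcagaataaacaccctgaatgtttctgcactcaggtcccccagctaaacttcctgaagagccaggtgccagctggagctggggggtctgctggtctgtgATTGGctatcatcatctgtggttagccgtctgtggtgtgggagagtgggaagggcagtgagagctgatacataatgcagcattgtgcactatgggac
Rag2: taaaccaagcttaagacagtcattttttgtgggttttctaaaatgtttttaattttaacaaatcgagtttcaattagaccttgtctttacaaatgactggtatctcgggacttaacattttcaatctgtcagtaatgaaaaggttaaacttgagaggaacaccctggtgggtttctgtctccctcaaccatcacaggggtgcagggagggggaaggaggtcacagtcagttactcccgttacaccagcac
Dntt: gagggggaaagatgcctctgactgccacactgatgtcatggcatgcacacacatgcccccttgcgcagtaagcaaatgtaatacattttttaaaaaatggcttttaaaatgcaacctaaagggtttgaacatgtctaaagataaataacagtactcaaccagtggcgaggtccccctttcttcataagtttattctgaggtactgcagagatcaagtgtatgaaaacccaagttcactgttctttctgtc
Xrcc6: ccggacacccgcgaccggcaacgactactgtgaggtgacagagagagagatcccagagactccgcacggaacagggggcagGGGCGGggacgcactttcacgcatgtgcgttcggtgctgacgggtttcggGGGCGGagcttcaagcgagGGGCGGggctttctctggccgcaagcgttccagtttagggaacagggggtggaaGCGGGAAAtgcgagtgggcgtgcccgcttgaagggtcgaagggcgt

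The promoters of Rag1, Rag2 and Dntt held 3, 3 and 2 CpG, against a median of 6 (quartiles 2 and 16) over all 32851 promoters of the table. At least as many CpG were held by 71%, 71% and 81.2% of all promoters. Those of the end-joining genes ranged widely. Xrcc5 held 5 CpG, Dclre1c 8, Nhej1 9, Xrcc6 25 and Xrcc4 26, and the promoters at the 2 starts of Lig4 held 27 and 28. Only 10.7% of all promoters held as many CpG as that of Xrcc6. Xrcc6 had 3 GC boxes and 1 E2F site, and at least 1 GC box was found in 32.7% of all promoters and at least 1 E2F site in 1.53%. Of the 10 promoters of the 9 genes, that of Xrcc6 alone had an E2F site, while that of Xrcc4 also had 3 GC boxes. A single match among 10 promoters says little about these genes. Rag1 had 1 CCAAT box, of which at least 1 was found in 33.8% of promoters, while Rag2 and Dntt had no match to any of the 4 motifs. TATAAA, present in 12.4% of promoters, was in none of the 4 promoters shown. The nearest summit to the start shown lay 91.1 kb away for Rag1, 66.2 kb for Rag2, 6.80 kb for Dntt and 9.15 kb for Xrcc6, each of them in pair 2. In pair 1 the distances were 181 kb, 156 kb, 135 kb and 34.8 kb. A match to these letters is a description of the sequence and not a site of binding.

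Most of the genes had an IgD peak nearby in pair 2, as most genes of the genome did, and almost none had one in pair 1. In pair 2, 8 of the 10 had a peak within the window, against 81.5% of all protein-coding genes. In pair 1, 1 of the 10 had a peak, against 15.9% of all protein-coding genes. Xrcc6 was the 1 gene of the 10 with a peak in both lists, and 14.0% of all protein-coding genes had that. A peak in either list was found at 8 of the 10, against 83.3% of all protein-coding genes. These shares lie near the background. The 10 genes were chosen by name, and Rag1 and Rag2 share most of their windows. They are not independent draws, so no interval is given for these shares, and shares of so few genes are coarse. The median window was 151 kb for the members and 117 kb for all protein-coding genes, and a longer window has more room for peaks. Over the 1.76 Mb of joined member windows there were 13.7 peaks per Mb in pair 2, against 15.1 in the joined windows of all protein-coding genes. Pair 1 had 0.569 per Mb, against 3.27.

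**Figure D1:**
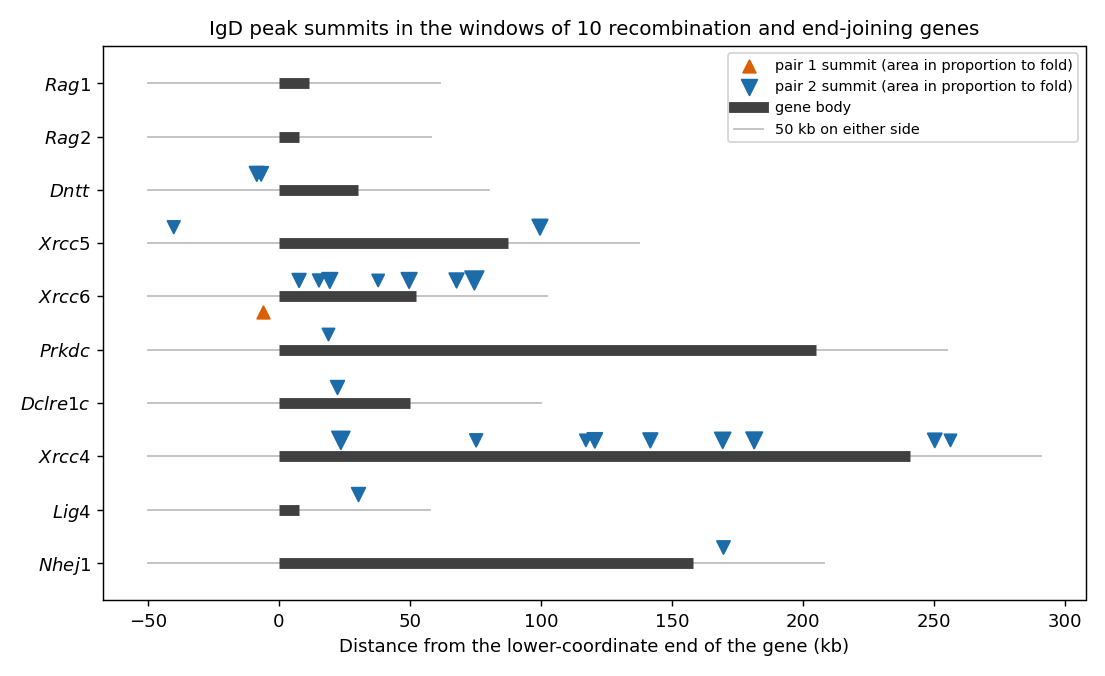
Summits of IgD peaks along each gene, in kb from its lower-coordinate end. Dark bars are gene bodies, thin lines the 50000 bp on either side, and triangles the summits of pair 1 (below the line) and pair 2 (above it), with area in proportion to fold. Rag1 and Rag2 carry no triangle, and Xrcc4 and Xrcc6 carry 16 of the 24 pair 2 summits.

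The 24 pair 2 peaks in these windows were narrow and of ordinary strength. They were 497 to 1752 bp wide, with a median of 714 bp against 774 bp in the whole list, and none was 5000 bp or wider, a width that 1295 peaks of the list had. Fold enrichment at the summit, which the authors' peak caller computed as IgD fragments over a background, ran from 2.95 to 7.03. The median was 4.05, against 3.78 in the whole list, and 13 of the 24 lay above the list's median. Many peaks of the list were tied at that median, at rank 18446 of 40628 by fold. The 13 of 24 are thus not to be set against an even split. A -log10 q of at least 5 was reached by 11 of the 24, and by 38.8% of the whole list. If the IgD fragments were not scaled, fold and p-value together give the number of fragments behind each summit, which was 10 to 25. At 20 of the 24 the solved background was the same, 2.70 fragments, so that folds there differ in steps of whole fragments. At those 20 peaks the fold was therefore not set against a background particular to each place. The peaks at Dclre1c and Lig4 and 1 peak at Xrcc6 had exactly the median fold of the list, 3.78, which corresponds to 13 fragments (6.92 to 22.2, a 95% exact Poisson interval that covers counting error only). That step alone held 6.28% of all pair 2 peaks.

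**Figure D2:**
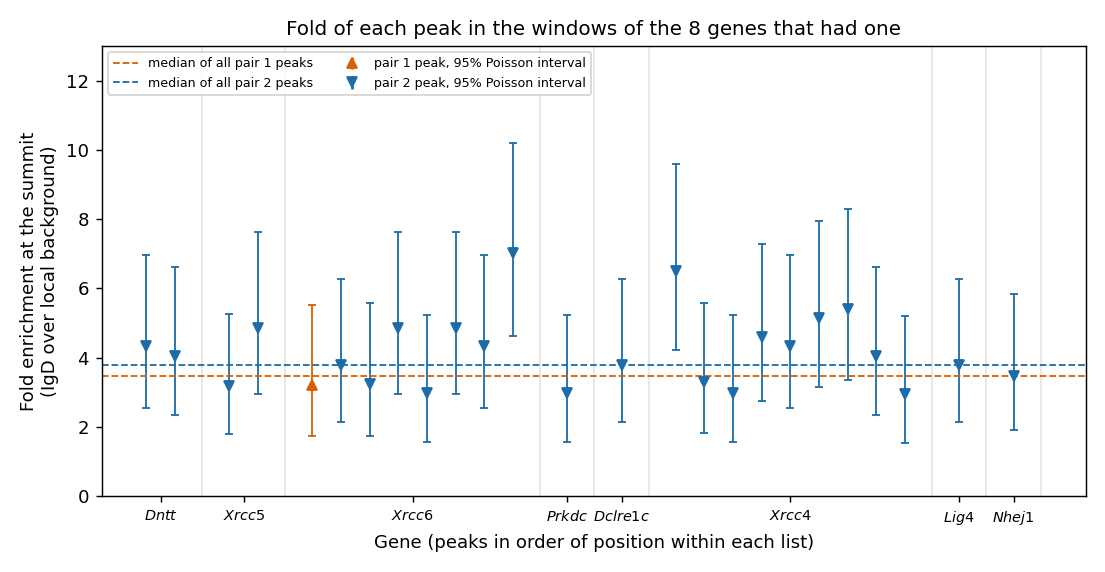
Fold enrichment at the summit of each peak in the member windows, by gene and in order of position. Triangles are peaks of pair 1 (pointing up) and pair 2 (pointing down), bars are the 95% Poisson interval of the solved fragments with the background held fixed, and dashed lines are the medians of the whole lists, 3.46 and 3.78. The intervals of all but the strongest peaks at Xrcc6 and Xrcc4 cross the pair 2 median.

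Among the genes of cutting and tailing, 1 of 3 had a peak in pair 2, against 81.5% of protein-coding genes, and 0 of 3 in pair 1, against 15.9%. Rag1 (chromosome 2, 101638252 to 101649532) and Rag2 (101624712 to 101632528) lie 5723 bp apart on opposite strands, so their windows share most of their sequence and do not count as independent genes here. Neither list had a peak in them. In pair 2 the flanking peaks lay 66.0 kb from Rag2 on the lower-coordinate side (fold 2.70, -log10 q 1.80) and 183 kb from Rag1 on the other side (fold 4.60, -log10 q 6.02). They bound a stretch of 273 kb without a peak, which also holds Iftap and Traf6, the second of which encodes a signalling ubiquitin ligase. In pair 1 the flanking peaks lay 156 kb below Rag2 (fold 3.46, -log10 q 2.96) and 4959 kb above Rag1 (fold 2.67, -log10 q 1.57), a stretch of 5140.1 kb that holds 44 protein-coding genes. Of all protein-coding genes, 12.9% lay in a pair 2 stretch at least as long and 6.49% in a pair 1 stretch at least as long.

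Dntt (chromosome 19, 41029275 to 41059525) had 2 peaks in pair 2, both upstream of its start. Their summits lay 8.47 kb (fold 4.33, -log10 q 5.31) and 6.80 kb (fold 4.05, -log10 q 4.64) before the start, outside any protein-coding gene. They rested on 15 fragments (8.40 to 24.7) and 14 fragments (7.65 to 23.5). By -log10 q they ranked 13209 and 16126 of 40628, so many peaks of the list were stronger. The nearest pair 1 peak to the gene lay 124 kb away, a distance that 72.4% of protein-coding genes reached.

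All 4 genes of end recognition and opening had a peak in pair 2, against 81.5% of protein-coding genes, and 1 of 4 in pair 1, against 15.9%, both near the background. The pair 2 peaks numbered 11. Xrcc6 (chromosome 15, 81987833 to 82040085) held 7 of them, or 46.0 per Mb of its window, against 14.8 per Mb over chromosome 15. A window at least as dense was found at 4.26% of all protein-coding genes. The strongest spanned 82061190 to 82062941, with its summit 22.3 kb above the gene, inside 4930407I10Rik. With a fold of 7.03 and a -log10 q of 13.7 it ranked 1023 in the list, in the top 2.52%, and it rested on 25 fragments (16.2 to 36.9). The others had folds of 2.97 to 4.87.

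The annotated body of Xrcc6 overlaps Desi1, which encodes a peptidase that removes SUMO, and its lower-coordinate end lies 28.5 kb before the start given in the promoter table. Of the 5 summits inside the annotated body, 3 lay in that stretch, at 20.9, 13.3 and 9.15 kb before the promoter-table start, and all 3 were inside Desi1 as well. Their folds were 3.78, 3.24 and 4.87. The other 2 lay past that start, 9.31 kb (fold 2.97) and 21.1 kb (fold 4.87) into the gene. Which of the overlapping genes a summit belongs to cannot be told apart here.

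The 1 peak of pair 1 at any member also lay at Xrcc6. It spanned 81980782 to 81981652 and had its summit 6.27 kb below the lower-coordinate end of the gene, 2 bp outside 1700029P11Rik. It ranked 6898 of 11375, with a fold of 3.20 and a -log10 q of 2.41 that rested on 11 fragments (5.49 to 19.7). It did not overlap a pair 2 peak, and the nearest of these lay 13.4 kb away. So 0 of 1 pair 1 peaks and 0 of 24 pair 2 peaks in the member windows were shared by the lists, against 27.5% of all pair 1 peaks and 6.76% of all pair 2 peaks. With shares of this size, few or no shared peaks among so few say nothing particular about these genes.

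The other genes of this step had 1 or 2 peaks each, in pair 2 alone. Xrcc5 (chromosome 1, 72307417 to 72394953) had a peak on either side and none inside. One summit lay 40.2 kb below the gene, within Pecr, which encodes a peroxisomal enoyl-CoA reductase (fold 3.17), and the other 12.1 kb above it, outside any protein-coding gene (fold 4.87, -log10 q 6.75). Dclre1c (chromosome 2, 3424061 to 3474211) had 1 summit inside, 22.0 kb past its start (fold 3.78, -log10 q 4.0). Prkdc (chromosome 16, 15637444 to 15842239) also had 1 inside, 18837 bp from its lower-coordinate end, with a fold of 2.97 and a -log10 q of 2.30 from 10 fragments (4.80 to 18.4). In its window of 304796 bp this made 3.28 peaks per Mb, against 14.8 per Mb over chromosome 16. Windows at least as dense were found at 81.2% of protein-coding genes.

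All 3 genes of ligation had a peak in pair 2, against 81.5% of protein-coding genes, and 0 of 3 in pair 1, against 15.9%, again near the background. The pair 2 peaks again numbered 11. Xrcc4 (chromosome 13, 89848914 to 90089608), the longest of the 10 genes, held 9, or 26.4 per Mb against 15.3 per Mb over chromosome 13. Windows at least as dense were found at 17.2% of protein-coding genes. Inside the gene lay 7 summits, spread over 158 kb, with gaps of 3.40 to 51.6 kb between neighbours. The strongest spanned 89872258 to 89873454, with its summit 217 kb past the start, toward the far end of the gene. It was in the top 4.48% of the list, with a fold of 6.49 and a -log10 q of 11.8 on 23 fragments (14.6 to 34.5). The folds of the other 6 were 3.30, 2.97, 4.60, 4.33, 5.14 and 5.41 in order toward the start. The remaining 2 summits lay 9.52 kb (fold 4.05) and 15.5 kb (fold 2.95) before the start, inside the neighbouring Tmem167. The nearest pair 1 peak to Xrcc4 was 2042 kb away, a distance that 3.0% of protein-coding genes reached.

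Lig4 (chromosome 8, 9970020 to 9977680) had 1 pair 2 summit, 22.3 kb before its start and 6214 bp outside Tnfsf13b, the gene of the B cell survival factor BAFF (fold 3.78, -log10 q 4.0). Nhej1 (chromosome 1, 74967346 to 75125226) had 1 summit 11.4 kb before its start, inside Cnppd1 (fold 3.46, -log10 q 3.39, 12 fragments, 6.20 to 21.0). No summit of either list lay within its annotated body of 157881 bp. Of protein-coding genes of any length, 31.9% had a pair 2 summit inside and 5.33% a pair 1 summit. Genes of similar length were not compared. The nearest pair 1 peak lay 150.2 kb from Lig4 and 1633 kb from Nhej1, distances that 69.1% and 5.37% of protein-coding genes reached.

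**Figure D3:**
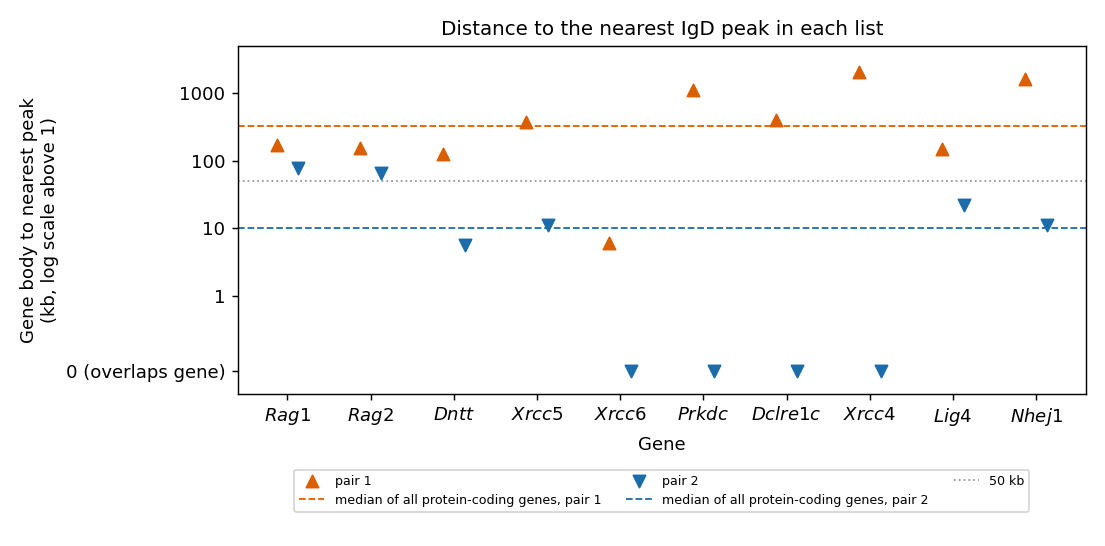
Distance in kb from each gene body to the nearest peak of pair 1 (triangles pointing up) and pair 2 (pointing down), on a log scale above 1 kb. Dashed lines are the medians of all protein-coding genes, 325 kb in pair 1 and 10.1 kb in pair 2, and the dotted line marks the window of 50 kb. Each gene lies nearer to a pair 2 peak than to a pair 1 peak, and 5 of the 10 lie above the median of protein-coding genes in each list. Pair 2 is the longer list, and the share of all protein-coding genes nearer to a pair 2 peak is not given here. The first of these counts thus says nothing particular about these genes.

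Summits inside a member came from pair 2 and lay in 4 genes, Xrcc4, Xrcc6, Prkdc and Dclre1c, against 31.9% of all protein-coding genes with a pair 2 summit inside. Of the 24 summits 14 were inside the member, 5 were inside a different protein-coding gene and 5 were in none. Of the 14, Xrcc4 held 7 and Xrcc6 held 5. Windows drawn around genes favour summits inside genes. The share of all pair 2 summits inside protein-coding genes is not given here, so this split says nothing particular about these genes. In pair 1, 0 of the 10 genes had a summit inside, against 5.33% of protein-coding genes. Of the windows, 3 were denser in pair 2 than their chromosome (Dntt, Xrcc6 and Xrcc4) and 7 were not. The share of all protein-coding windows denser than their chromosome is not given here, so this split cannot be called unusual. Windows at least as dense as that of Dntt, which held 2 peaks, were found at 43.1% of protein-coding genes. Xrcc4 and Xrcc6 held 16 of the 24 peaks (66.7%), and the other 6 genes with a peak shared 8. The windows of Xrcc4 and Xrcc6 covered 340695 and 152253 bp of the 1.76 Mb of joined member windows. These 2 genes were singled out by their counts, so the share of 66.7% has no background to be read against. With pair 2 reduced to as many peaks as pair 1, taking those with the highest -log10 q, 3 genes kept a peak (Xrcc4, Xrcc5 and Xrcc6), against 43.7% of protein-coding genes.

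**Figure D4:**
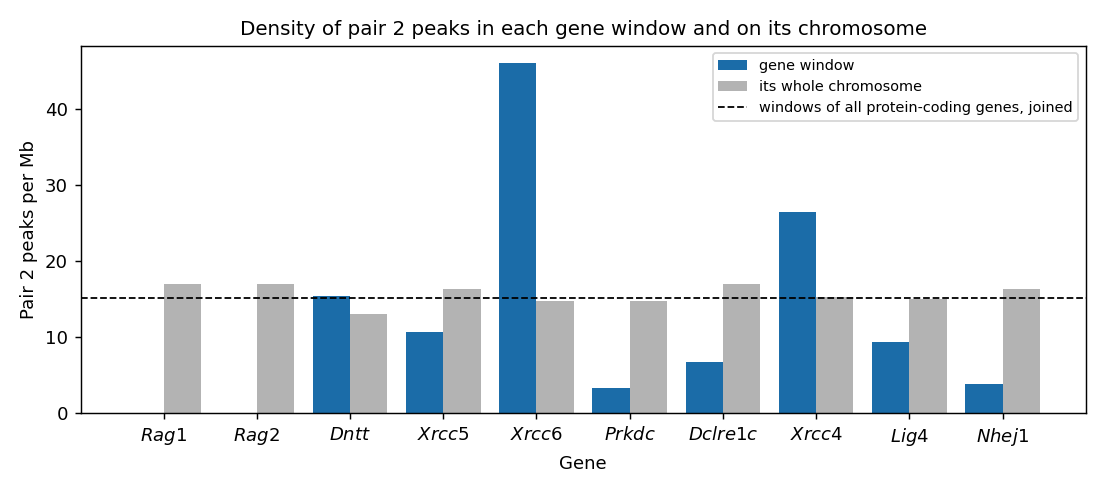
Pair 2 peaks per Mb in the window of each gene (blue bars, left) and over its whole chromosome (grey bars, right), with a dashed line at 15.1 per Mb for the joined windows of all protein-coding genes. Xrcc6 at 46.0, Xrcc4 at 26.4 and, narrowly, Dntt at 15.4 stand above the line and Rag1 and Rag2 are at 0.

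A wider list of 38 genes of DNA end processing, damage signalling and other end joining, none of them among the 10, was treated likewise. In pair 2, 34 of 38 (89.5%) had a peak within 50000 bp, against 81.5% of protein-coding genes, and in pair 1 4 of 38 did (10.5%), against 15.9%. A pair 2 summit inside the gene or within 3000 bp was found for 19 of 38, against 37.7% of protein-coding genes. In pair 1 there were 2, against 6.29%.

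Such a pair 2 summit was present at the genes of the MRN complex, which senses broken ends, and at Mdc1, Rnf8, Rnf168 and Parp3. It was absent at Trp53bp1, H2afx, Parp1 and Atm, which also act in sensing or signalling damage. All of these genes were singled out after their values were seen, so no contrast between them is drawn. The share of MRN genes with such a summit is to be read against the 37.7% of protein-coding genes. The highest fold was 6.49 at Mre11a (-log10 q 11.8), 5.95 at Nbn (-log10 q 10) and 4.83 at Rad50 (-log10 q 7.0). Rad50 was the 1 gene of the 38 with a summit in both peak lists, against 4.24% of protein-coding genes. Its pair 1 peak had a fold of 2.66 and a -log10 q of 1.42, and its summit lay 7.92 kb from that of pair 2. Atm, the kinase that MRN activates, had a summit in pair 1 alone (fold 3.20, -log10 q 2.41).

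Among the genes with a pair 2 summit outside the MRN complex, the resection factor gene Rbbp8 had the highest fold, 7.03. Where a gene had several such summits, the fold given is that of its strongest. Genes with more summits, such as Rnf168 with 4, thus had more room for a high value. Of the genes that act on damaged chromatin, Rnf168, a histone ubiquitin ligase, had a fold of 6.22, Rif1, which limits resection, 5.30, Rnf8 4.92, Brca1 4.76 and the scaffold gene Mdc1 4.66. Tdp1 (fold 5.46), Parp3 (fold 4.52), Lig1 (fold 4.32), Hmgb1 (fold 3.78), Polm (fold 3.24), Trim28 (fold 3.15), Polq (fold 2.97), Xrcc1 (fold 2.70) and Shld1 (fold 2.70) also had such a summit. Hmgb1, whose product aids the recombinase in binding DNA, thus stood at the median fold of the list.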

How the data were processed

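ChIP-seq libraries of sorted pro-B cells of WT mice were used, 2 with anti-mouse IgD and 2 with mouse IgG, numbered in the titles. Per the submitters' processing notes, HISAT2, MACS2 and ChIPseeker and the build mm10 were used. No version or setting is given in the sources used for this. The authors deposited 1 narrowPeak list for each IgD library and its equally numbered IgG library. The deposited fold enrichment (a ratio), -log10 p and -log10 q of each peak are the authors' peak caller's own values, and both lists end near a q of 0.05. The deposited integer score was not used. Read totals were not analysed here, so the depth is unknown.

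Gene positions came from RefSeq (GRCm38.p6), with 21774 protein-coding genes placed on chromosomes 1-19, X and Y. Genes placed on scaffolds were left out. Exons were not used. Strand and start came from the promoter table where it held the gene. A peak was counted on an overlap of at least 1 bp with the window. Fragments (t) and background (b) at a summit were solved from fold = (t + 1) / (b + 1) and the upper Poisson tail above t, with a solution within 0.01 of the deposited -log10 p for all 25 member peaks. Intervals are at 95% and cover counting error only. Shares of all protein-coding genes, or of all peaks, counted by the same rule are given for comparison, and no test was made between them. The members and lists were chosen with earlier results of these data known. The genes named are the 10 members, the protein-coding genes that hold or lie nearest to a summit in their windows, and genes of the wider list with a summit inside or within 3000 bp. Of the wider list, 1 such gene is counted but not reported by name. The procedures were tested on simulated data. Other windows, thresholds, overlap rules and list lengths were tried. Computation used scipy 1.17.1, pandas 2.3.3 and numpy 2.4.6 under Python 3.11.15, and figures matplotlib 3.10.9.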

Additional observations from a re-analysis of the deposited data

How the results depend on the processing

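The count of genes with a peak in pair 1, and in both lists, stayed at 1 with windows of 10000 bp (8.64% and 6.30% of all protein-coding genes) and 100000 bp (23.9% and 22.9%), with summits in place of whole peaks (15.5% and 13.6%) and without peaks of 5000 bp or wider (15.1% and 13.2%). With 10000 bp this count rests on the annotated lower-coordinate end of Xrcc6. The pair 1 summit lay 34.8 kb before the promoter-table start of Xrcc6, which is farther than 10000 bp. The count was 0 with a window of 3000 bp (7.10% and 5.01%), with a -log10 q of at least 5 (4.78% and 3.49%) and with a fold of at least 5 (2.52% and 1.70%). The count in both lists also stayed at 1 with pair 2 reduced to the length of pair 1 (9.13%). In pair 2 the 8 genes became 4 with a window of 3000 bp, 5 with 10000 bp, 4 with a -log10 q of at least 5, 2 with a fold of at least 5 and 3 with the list reduced to the length of pair 1. The same settings gave 39.0%, 49.8%, 52.8%, 33.2% and 43.7% of all protein-coding genes. A window of 100000 bp took in all 10 genes, Rag1 and Rag2 included, and 93.3% of protein-coding genes. The 8 stayed with summits in place of whole peaks (80.9%) and without wide peaks (80.7%). With a peak in either list there were 8 genes, and leaving out each pair in turn gave 1 to 8. The density in member windows at a -log10 q of at least 5 was 0 per Mb in pair 1 and 6.26 in pair 2, and in pair 2 reduced to the length of pair 1 it was 4.56. These settings remove peaks or sequence by construction, and the matching densities over all protein-coding windows are not given here. No member peak was shared at 50% reciprocal overlap (3.91% of all pair 1 and 1.10% of all pair 2 peaks), with summits within 200 bp (2.93% and 0.820%) or within 1000 bp (12.5% and 3.47%). With the start of Xrcc6 from the promoter table, an alternative chosen after seeing the data, 11 summits in place of 14 lay inside members. No paired analysis was possible because each pair gave 1 list of peaks and no separate values for IgD and IgG. With 10 to 25 fragments at a summit, most folds of member peaks could not be told apart from one another by counting error.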
